A study of Mus musculus with 2 samples.

Results

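Mitochondrial biogenesis regulators are the nuclear genes that set how many mitochondria a cell makes and how strongly the mitochondrial genome is read. The 10 genes described here were taken from a fixed list of symbols, matched by Ensembl identifier in a table of 20330 genes. They comprise the PGC-1 coactivators Ppargc1a, Ppargc1b and Pprc1, the nuclear transcription factors Esrra, Nrf1 and Gabpa, and the mitochondrial transcription proteins encoded by Tfam, Tfb1m, Tfb2m and Polrmt. All 10 genes were found, each on a row of its own.

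The genes were measured by poly(A) RNA sequencing of adipose-tissue macrophages (ATM), which had been sorted with F4/80 and CD11b antibodies from visceral fat after 12 weeks of high-fat diet. The KO group was labelled hMRP8cre+;Hif-1αfl/fl;ApoE-/- and the WT group hMRP8cre-;Hif-1αfl/fl;ApoE-/-, both on C57BL/6. By these labels the animals called WT also lacked ApoE and carried the loxP-flanked Hif-1α alleles. The hMRP8 promoter drives Cre in cells of the myeloid lineage, neutrophils among them. By the methods of the study, mice began the diet at an age of 4 weeks. Each genotype was represented by 1 library, and the number of mice pooled per library was not stated. A difference between the libraries therefore has no replicate check, genotype and library cannot be told apart, and no p-value is given.

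Mitochondrial proteins are encoded by both the nuclear and the mitochondrial genome, and the PGC-1 coactivators tie the expression of both together. They do not bind DNA themselves but are recruited by factors such as estrogen-related receptor α (ERRα, from Esrra), nuclear respiratory factor 1 (from Nrf1) and GABP, also known as nuclear respiratory factor 2, whose DNA-binding subunit comes from Gabpa. These factors switch on nuclear genes for respiratory subunits and for the proteins that transcribe mitochondrial DNA. In macrophages, PGC-1β has been linked to the oxidative metabolism of alternatively activated cells. The gene Nrf1 is distinct from Nfe2l1 and Nfe2l2, which encode unrelated proteins that share the abbreviation NRF.

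Promoters of the members were searched for the letters that factors on the same list, and HIF-1, are known to recognise. RefSeq promoter windows of 300 bases (GRCm38.p6) were matched for 9 of the 10 genes, with Ppargc1b unmatched and 2 windows for Nrf1. Letters were searched on both strands. The NRF1 core GCGCATGCG was held by 1.75% of 32851 windows and, among the members, by that of Tfb2m, where it began 13 bases into the transcript. The ETS core CCGGAAG, which GABP binds, was held by 8.86% of windows and by those of Gabpa, Polrmt and Tfam, where it began at positions -93, -43 and -47 from the start. The ERR element TCAAGGTCA was held by 0.423% of windows and by no member window. The core of the hypoxia response element, ACGTG, was held by 19.6% of windows and, among the members, by that of Ppargc1a. No member window held more than 1 of these motifs, so none overlapped. A match of letters is a description and does not show that a factor was bound.

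The 4 promoters with an NRF1 or ETS core are shown, a choice made after the levels of the genes were seen. That of Ppargc1a, which held the hypoxia response element core, is not shown. Esrra, whose level differed widely, held none of the motifs searched. The 120 bases before and 30 after the start are given 5′ to 3′ on the strand of the gene, with the matched core in capitals (the NRF1 core in Tfb2m, the ETS core in the others). Gabpa lies at chr16:84835004-84835153 (+), Tfb2m at chr1:179546247-179546396 (-), Polrmt at chr10:79746552-79746701 (-) and Tfam at chr10:71238015-71238164 (-).
Gabpa: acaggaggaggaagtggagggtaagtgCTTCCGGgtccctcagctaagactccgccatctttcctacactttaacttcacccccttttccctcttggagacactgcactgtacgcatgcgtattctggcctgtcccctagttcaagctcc
Tfb2m: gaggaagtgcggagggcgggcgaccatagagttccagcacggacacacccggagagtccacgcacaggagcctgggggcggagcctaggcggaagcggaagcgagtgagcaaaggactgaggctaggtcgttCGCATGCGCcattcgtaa
Polrmt: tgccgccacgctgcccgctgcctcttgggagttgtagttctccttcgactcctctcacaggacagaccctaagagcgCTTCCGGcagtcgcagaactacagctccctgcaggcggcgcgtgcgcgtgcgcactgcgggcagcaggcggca
Tfam: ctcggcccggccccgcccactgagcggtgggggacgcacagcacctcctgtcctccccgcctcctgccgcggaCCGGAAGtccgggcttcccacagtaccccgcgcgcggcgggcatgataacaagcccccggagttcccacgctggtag

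The levels of the PGC-1 coactivators were examined first. Pprc1, whose product PRC is a growth-regulated coactivator that docks on nuclear respiratory factor 1, was the highest member in both libraries, at 41.9 FPKM in WT against 58.0 in KO. FPKM is the number of sequenced fragments per kilobase of transcript, scaled to the mapped fragments of the library, so levels of different genes can be set in order within a library. Pprc1 made up 58.1% of the summed FPKM of the 10 genes in WT and 57.2% in KO, and it stood above 82.7% and 87.7% of all genes listed above 0. Ppargc1b, which encodes PGC-1β, was at 7.96 FPKM in WT against 7.67 in KO, at rank 3 and then rank 4 of the 10. Ppargc1a, which encodes PGC-1α and drives mitochondrial biogenesis in brown fat and muscle, was listed at 0 in both libraries. Pprc1 thus stood above Ppargc1b in each library, and the 0 of Ppargc1a does not show that these cells lacked its transcript.

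**Figure D1:**
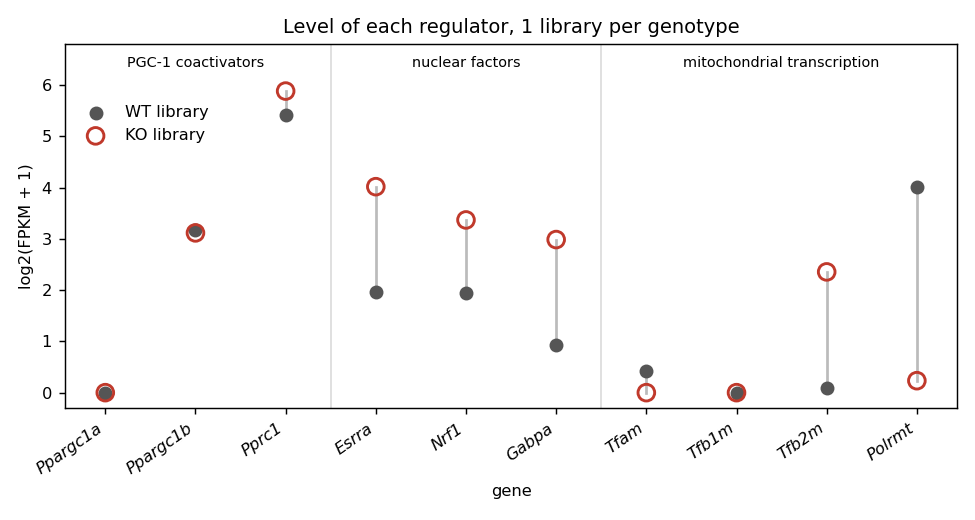
Level of each of the 10 regulators as log2(FPKM + 1) in the WT library (filled grey) and the KO library (open red), with 1 point per library and a line joining the pair. Pprc1 is highest in both, the nuclear factors are higher in KO, Polrmt is higher in WT, and Ppargc1a and Tfb1m lie at 0 in both.

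The difference between the libraries was expressed as the change in log2(FPKM + 1), KO minus WT. The coactivators differed little. The change was -0.05 for Ppargc1b and 0.46 for Pprc1, where the latter corresponds to 1.38 times the FPKM of WT. For comparison, the SD of the change over all genes with a similar mean level was 1.87 for the 1885 genes at 5 to 10 FPKM, where Ppargc1b lies, and 1.20 for the 1711 genes at 20 to 50 FPKM, where Pprc1 lies. Both changes were smaller than that spread, which contains noise and any real difference alike. As the libraries are bulk RNA, fewer cells expressing a gene and less of its RNA per cell cannot be told apart.

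The nuclear transcription factors that recruit these coactivators were all at a higher value in KO. Esrra, the orphan nuclear receptor through which PGC-1 proteins reach many respiratory genes, was at 2.91 FPKM in WT against 15.2 in KO. Nrf1 was at 2.83 FPKM in WT against 9.33 in KO. Gabpa was at 0.914 FPKM in WT against 6.92 in KO. In WT these factors held the places below Polrmt and Ppargc1b, whereas in KO Esrra and Nrf1 ranked directly below Pprc1. Their summed FPKM was 6.66 in WT and 31.4 in KO.

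The change was 2.05 for Esrra, 1.43 for Nrf1 and 2.05 for Gabpa. On the plain FPKM ratio, KO was at 5.22 times the WT value for Esrra, 3.29 times for Nrf1 and 7.57 times for Gabpa. A gene is called here when the change reaches 3-fold on the log2(FPKM + 1) scale, a value of 1.58, and by this rule Esrra and Gabpa were called and Nrf1 was not. Nrf1 passed only where the pseudocount was smaller, the ratio itself was used or the threshold was 2-fold. The SD of the change over all genes at similar mean levels was 1.87 at 5 to 10 FPKM, where Esrra and Nrf1 lie, and 1.92 at 2 to 5 FPKM, where Gabpa lies. The change thus exceeded 1 SD of genes at that level slightly for Esrra and Gabpa and fell short of it for Nrf1.

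Of the mitochondrial transcription proteins, Polrmt and Tfb2m showed the widest differences among the 7 compared members, in opposite directions. Each was under 1 FPKM in 1 library. Polrmt, the RNA polymerase of the mitochondrial genome, was at 15.2 FPKM in WT against 0.175 in KO, a change of -3.78. In WT it was the member next below Pprc1, and in KO it was the lowest of those listed above 0. Tfb2m, which encodes the factor that opens the promoter together with this polymerase, was at 0.0695 FPKM in WT against 4.12 in KO, a change of 2.26. The SD of the change over genes at similar mean levels was 1.87 for Polrmt and 1.92 for Tfb2m.

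Tfam, whose product packages mitochondrial DNA and bends it at promoters, was at 0.336 FPKM in WT and was listed at 0 in KO. Tfb1m, which encodes a methyltransferase of the small mitochondrial ribosomal RNA, was listed at 0 in both libraries. A value of 0 in this table does not show that a gene was silent, since genes that cells with mitochondrial DNA depend on, such as Ssbp1 for the single-stranded DNA-binding protein, were also listed at 0 in both libraries. No fold is given against a value of 0.

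Sequencing depth was read from the smallest recurring step in the table. Among genes with 1 annotated transcript, the product of FPKM and length, after 150 nt were taken off the length, recurred at 0.161 FPKM x kilobases in WT (21 genes) and at 0.127 in KO (22 genes), and this step was taken as 1 fragment. By this step WT held about 6230000 fragments and KO about 7850000. With the longest coding transcript as length, the estimate for Pprc1 was 1330 fragments in WT against 2318 in KO, and for Ppargc1b 174 against 211. Esrra rested on 38 and 249 fragments, Nrf1 on 61 and 251, and Gabpa on 28 and 263. Polrmt rested on 341 fragments in WT and 5 in KO. Tfb2m rested on 1 fragment in WT and 74 in KO, and Tfam on 8 in WT and none in KO.

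From these fragments, exact 95% binomial intervals of the KO to WT ratio were 0.783 to 1.18 for Ppargc1b, 1.29 to 1.48 for Pprc1, 3.68 to 7.52 for Esrra, 2.46 to 4.39 for Nrf1 and 5.04 to 11.4 for Gabpa. For Tfb2m, with 1 fragment in WT, the interval ran from 10.2 to 2349. For Polrmt the WT to KO ratio was 86.5 with an interval of 36.5 to 267. Where a value was 0, the level that 3 fragments would give was 0.0763 FPKM in WT and 0.0605 in KO for Ppargc1a, 0.385 and 0.305 for Tfb1m, and 0.0951 in KO for Tfam. These intervals and floors cover counting error only, and PCR copies of 1 molecule do not count as separate observations. Over genes at the same level, the spread between the libraries also holds whatever else set them apart.

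Of the 10 genes, 7 reached 1 FPKM in at least 1 library and were compared, whereas Ppargc1a, Tfam and Tfb1m did not. Among the 7, Esrra, Gabpa and Tfb2m were higher in KO by 3-fold and Polrmt was lower. Over all 10297 genes compared by this rule, 27.3% were past 3-fold, with 13.6% higher and 13.7% lower in KO. Gabpa, Tfb2m and Polrmt were compared only because of the library in which they were high. Such genes differ through this filter, though not always by 3-fold, so the count of 4 among 7 is given as a description. In the 4 members with at least 1 FPKM in both libraries, Ppargc1b, Pprc1, Esrra and Nrf1, only Esrra was past 3-fold, against 11.5% of the 7586 genes in the table that met this requirement. That share was not matched for level. The median change was 1.43 over the 7 members and 0.03 over all compared genes. Over all 10 members it was 0.23, over the 4 with at least 1 FPKM in both libraries 0.94, and over the 5 with a mean of at least 5 FPKM 0.46.

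**Figure D2:**
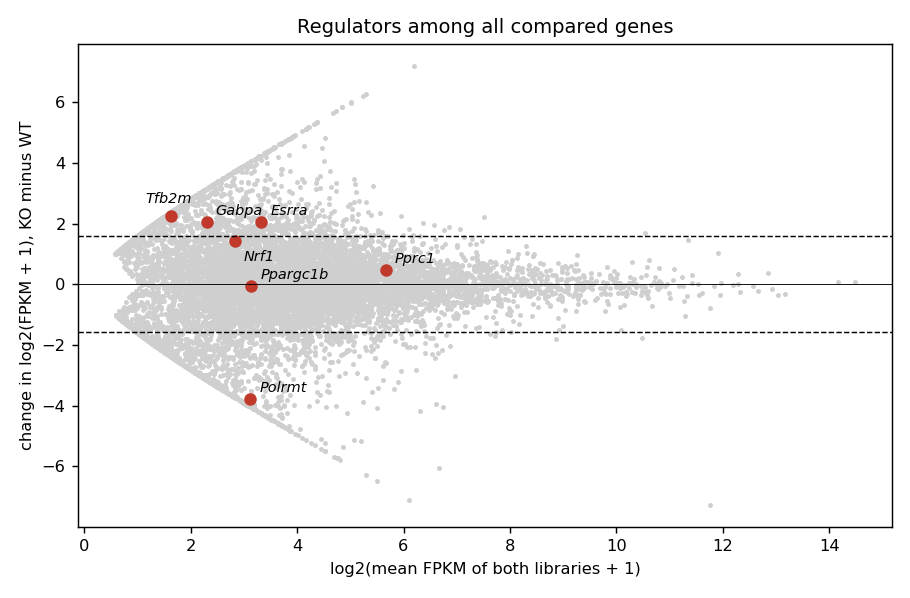
Change in log2(FPKM + 1), KO minus WT, against log2(mean FPKM + 1) for the 10297 compared genes (grey points) and the 7 compared regulators (red, named). Dashed lines mark 3-fold. Esrra, Gabpa and Tfb2m lie above the upper line, Polrmt lies below the lower line, and unrelated genes of similar level spread past both lines.

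How often genes passed 3-fold depended strongly on their level. The share was 49.0% at a mean of 2 to 5 FPKM, which includes Gabpa and Tfb2m, and 32.4% at 5 to 10 FPKM, which includes Ppargc1b, Esrra, Nrf1 and Polrmt. At 20 to 50 FPKM, the level of Pprc1, it was 11.7%. At 0.5 to 1 FPKM, where no compared member lies, it was 0% of 520 genes. This 0% was fixed in advance, as no gene with a mean under 1 FPKM can reach 3-fold with a pseudocount of 1. The same holds for genes of the lists below that lie in this band. Averaged over the levels of the 7 compared members, 34.2% of all genes were past 3-fold. In the same bands, 15.3% of genes at 2 to 5 FPKM and 6.05% of those at 5 to 10 FPKM were listed at 0 in WT, and 12.9% and 5.31% were listed at 0 in KO.

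**Figure D3:**
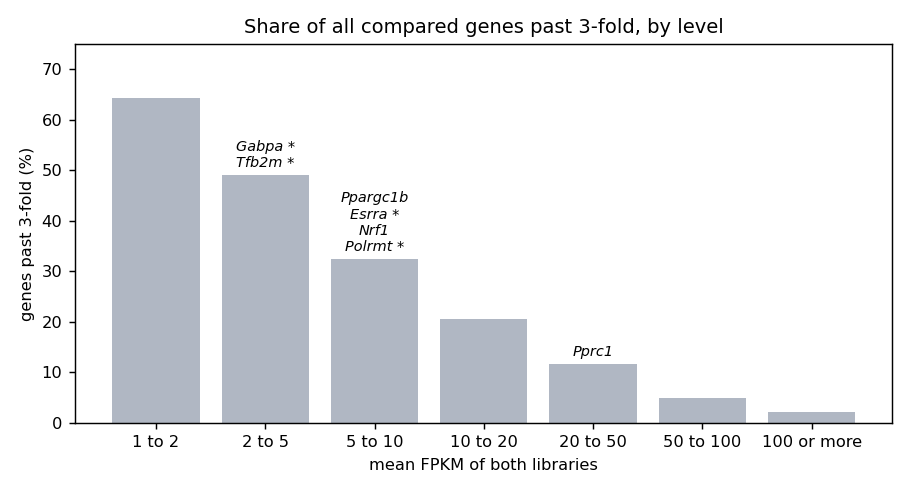
Percentage of all compared genes past 3-fold in either direction, by mean FPKM of both libraries, with the compared regulators named above the bar of their level (an asterisk marks those past 3-fold). The bars fall from 64.3% at 1 to 2 FPKM to 2.14% at 100 FPKM or more, and 6 of the 7 regulators sit in bars of 32.4% or 49.0%.

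Members that act together were compared as ratios within each library, on the log2 scale with a pseudocount of 1 added to each gene. Only pairs listed above 0 in both libraries are given. The log2 ratio of Ppargc1b to Pprc1 was -2.26 in WT and -2.77 in KO. The log2 ratio of Gabpa to Gabpb1, the partner that carries the activation domain of the GABP complex, was -2.37 in WT and -0.40 in KO. With a pseudocount of 0.1 the difference between the libraries, KO minus WT, grew from 1.97 to 2.71 for this pair, whereas for Ppargc1b to Pprc1 it was -0.51 and -0.52. Gabpb1 itself was at 8.92 FPKM in WT against 9.45 in KO, and the related Gabpb2 at 9.29 and 8.79, next to Gabpa at 0.914 and 6.92.

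Gene models that share sequence with a member could take or lend fragments, since the library protocol in the labels names no step that marks strand and the strand setting of the counting is not given. By the GENCODE M21 annotation of GRCm38, Gabpa (ENSMUSG00000008976, chromosome 16, 84834925 to 84863779, + strand) shares 397 exonic bases with Atp5j, which encodes a subunit of ATP synthase and is transcribed the other way from the same region. Atp5j was at 38.8 FPKM in WT against 60.9 in KO, higher than Gabpa in both. Esrra (ENSMUSG00000024955, chromosome 19, 6910977 to 6921813, - strand) shares 73 exonic bases with Trmt112 on the opposite strand, which was at 86.4 FPKM in WT against 65.7 in KO, the reverse of the order of Esrra. It also holds Mir6990 within 91 exonic bases on its own strand. Pprc1 (ENSMUSG00000055491, chromosome 19, 46044886 to 46072915, + strand) shares 177 exonic bases with Ldb1, at 58.1 and 50.7 FPKM. Tfb1m (ENSMUSG00000036983, chromosome 17, 3519256 to 3557781, - strand) shares 142 with Tiam2. The part of these overlaps in the values was not tested.

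Nearly identical copies were searched among annotated transcripts, with at least 200 nt aligned at 95% identity or more. The single such pair was Tfb2m (ENSMUSG00000026492, chromosome 1, 179528055 to 179546267, - strand) with Gm1818, over 1187 nt at 99.3% identity. Fragments from Tfb2m and Gm1818 could be divided between these genes by the counting, so the Tfb2m values are uncertain. No value was found under the symbol Gm1818 for either library, so this sharing could not be assessed. Nrf1 (ENSMUSG00000058440, chromosome 6, 30047988 to 30153458, + strand), Polrmt (ENSMUSG00000020329, chromosome 10, 79736123 to 79746581, - strand) and Tfam (ENSMUSG00000003923, chromosome 10, 71225464 to 71238280, - strand) had neither an exonic overlap nor such a copy. The same held for Ppargc1a (ENSMUSG00000029167, chromosome 5, 51454250 to 51567726, - strand) and Ppargc1b (ENSMUSG00000033871, chromosome 18, 61298136 to 61400431, - strand).

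The nuclear circuit around the coactivators was compared next, in lists of partner factors, upstream regulators and coregulators. Of 53 genes compared, 3 were higher and 4 were lower in KO by 3-fold, which is 13.2%, where 19.0% of all genes at the same levels were past 3-fold. With a smaller pseudocount or on the plain FPKM ratio more genes of each list passed, as given below, and so did more of all compared genes. The median change of these 53 genes was 0.08. Among the partner factors, Pparg, the fat-sensing nuclear receptor, was at 36.4 FPKM in WT against 7.78 in KO, and Nr1h3, which encodes the oxysterol receptor LXRα, was at 12.9 and 2.97. The thyroid hormone receptor gene Thra was higher in KO, at 7.95 FPKM in WT against 28.0 in KO, as was Myc, at 11.4 and 37.3. Mef2d, at 80.1 and 90.9 FPKM, and Nfe2l2, at 179 and 223 FPKM, had the highest mean FPKM over both libraries of the 23 partner factors listed and differed by far less than 3-fold. Of the 20 partner factors compared, 16 were within 3-fold and 4 were past it, where 18.4% of all genes at these levels were past 3-fold. With a pseudocount of 0.1 or 0.01 or on the plain ratio, 6 were past it.

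Upstream of PGC-1, 22 of 23 genes compared were within 3-fold and the median change was -0.12, where 18.1% of all genes at these levels were past 3-fold. The exception was Prkag1, a regulatory subunit of the energy sensor AMP-activated kinase, at 36.3 FPKM in WT against 3.48 in KO, and 3 genes were past 3-fold with a pseudocount of 0.1 or 0.01 or on the plain ratio, settings under which 36.4% to 37.1% of all compared genes passed. Crtc2, a coactivator of CREB, was at 126 and 124 FPKM, and the kinase gene Sik1, whose product restrains CRTC proteins, was at 89.9 and 112. Of 10 coregulators, 2 were past 3-fold, or 4 under those same settings, where 22.5% of all genes at these levels were past 3-fold. Within 3-fold were the acetyltransferase gene Crebbp at 41.3 and 46.1 FPKM and Ncoa3 at 31.3 and 43.6. Prmt1, an arginine methyltransferase, was at 9.65 FPKM in WT against 41.2 in KO, and the mediator subunit gene Med17 was at 7.01 and 1.32.

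The machinery that copies mitochondrial DNA and matures its RNA was described in the same way. Of 48 genes compared, 9 were higher and 16 were lower in KO by 3-fold, which is 52.1%, where 37.5% of all genes at the same levels were past 3-fold. The median change was -0.33. Of the 58 genes of these lists in the table, 7 were listed at 0 in both libraries, 8 in WT only and 7 in KO only, and 24 had at least 1 FPKM in both. Of all compared genes, a base that leaves out genes at 0 in both libraries, 9.26% were listed at 0 in WT and 7.86% in KO. At 2 to 5 FPKM, the band of the median level of these lists, the shares were 15.3% and 12.9%. Over all 20330 genes, 9773 were listed above 0 in WT and 10124 in KO. Among the 24 list genes with at least 1 FPKM in both libraries, 6 were past 3-fold, where 11.5% of all genes meeting this requirement were. That 11.5% takes in genes of all levels and was not matched to the levels of these lists, so the 2 shares cannot be compared directly. The other list genes past 3-fold were compared only through the library in which they were high, so the larger count describes these libraries and was not tested.

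In mtDNA replication, 7 of 18 genes compared were lower in KO by 3-fold and 2 were higher, Tk2 and the topoisomerase gene Top1mt, the latter listed at 0 in WT and 4.43 FPKM in KO. Of all genes at the levels of this list, 41.9% were past 3-fold. With at least 1 FPKM in both libraries, 3 genes were past 3-fold and the median change turned from -0.55 to 0.55. Dguok and Tk2 encode the mitochondrial kinases of purine and of pyrimidine deoxynucleosides. Dguok was at 68.8 FPKM in WT against 7.27 in KO, whereas Tk2 was at 7.65 and 25.9. Rnaseh1, which removes RNA primers, was at 18.3 FPKM in WT against 1.99 in KO. Among the partners of mitochondrial transcription, 8 were compared. Past 3-fold, Tefm, Mterf4 and Mrpl12 were higher and Clpp, Clpx and Slc25a14 were lower in KO, although Slc25a14 encodes a carrier with no established role in transcription. Of all genes at these levels 40.6% were past 3-fold, and with at least 1 FPKM in both libraries Clpx alone was. Clpx, the unfoldase of the ClpXP protease, was at 8.63 and 2.06 FPKM, Lonp1, the protease that degrades TFAM, at 5.60 and 11.5, and Mterf3, a repressor of mitochondrial transcription, at 8.17 and 7.80.

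In mitochondrial RNA processing, 10 of 22 genes compared were past 3-fold, with Supv3l1, Tbrg4, Trmu and Pus1 higher in KO and 6 genes lower, and the median change was -0.44. Of all genes at these levels 32.9% were past 3-fold, and with at least 1 FPKM in both libraries 2 genes of the list were, Tbrg4 and Ptcd2. Slirp, which stabilises mitochondrial mRNA, was at 78.6 FPKM in WT against 30.6 in KO, within 3-fold. Ptcd2 was at 18.5 and 2.88 FPKM, and Tbrg4, of the FASTK family, was at 2.34 and 13.2. Rexo2, an exonuclease for short RNA, was at 29.2 and 56.0 FPKM. The 15 genes encoded by mitochondrial DNA, which this machinery reads, are not analysed here.

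**Figure D4:**
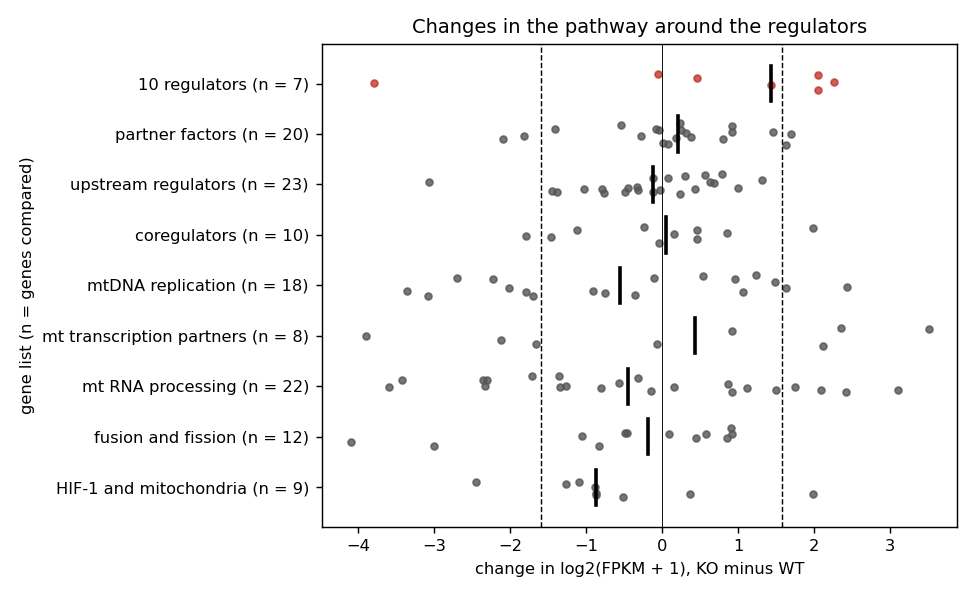
Change in log2(FPKM + 1), KO minus WT, for the compared genes of each list (points; the regulators in red) with the median of the list (bar) and 3-fold marked by dashed lines. The lists of partner factors, upstream regulators and coregulators centre near 0, with medians from -0.12 to 0.21, and the lists of mitochondrial DNA and RNA machinery spread widely past both dashed lines.

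The targeted genes and the identity of the cells were checked. Hif1a was at 30.4 FPKM in WT against 21.0 in KO, a change of -0.52. This value covers the whole gene, the deleted exon was not analysed here, and the difference was smaller than the SD of 1.20 over genes at 20 to 50 FPKM. Apoe, labelled ApoE-/- in both groups, was at 94.3 FPKM in WT against 116.5 in KO, a change of 0.30. These whole-gene values thus do not bear out the label, nor can they settle it, since they do not show which parts of the gene were read. The reason was not tested. All 10 macrophage markers in the table were above 0 in both libraries, with a summed FPKM of 12102 in WT and 12226 in KO. By gene, 5 were at a higher value in KO and 5 in WT. Of the cells known for PGC-1α, skeletal muscle markers summed to 0 FPKM in WT and 0.315 FPKM in KO, and of 5 brown adipocyte markers only Ucp1 was above 0. Of 7 adipocyte markers, Adipoq, Plin1 and Retn were at 0 in both libraries, and the sum was 95.9 and 100.1 FPKM, nearly all from Fabp4, which macrophages also express. Neutrophil markers, 6 of 7 in the table, summed to 175 FPKM in WT and 538 FPKM in KO, with Camp at 0 in both. Nearly all of this came from S100a8, at 73.3 FPKM in WT against 182 in KO, S100a9, at 63.4 and 301, and Mmp9, at 38.3 and 48.9. Retnlg was at 0.385 and 2.46 FPKM and Ngp at 0 and 2.61. The 6 fibroblast markers summed to 43.2 and 84.3, each at a higher value in KO. Eosinophil markers summed to 6.50 FPKM in WT and 33.1 in KO, with Epx, Prg2 and Siglecf at 0 in both, endothelial markers to 13.6 and 16.0, and mesothelial markers to 0 and 7.84, with Krt19, Lrrn4, Msln and Wt1 at 0 in both. Dendritic cell markers summed to 2.18 and 9.54, with Zbtb46 at 0 in WT and 9.45 in KO, whereas Xcr1 and Ccr7 were at a lower value in KO. B cell markers summed to 2.75 and 6.46, with Cd79b at 0 and 5.52 and Cd79a at a lower value in KO. T cell markers were at 0 in both libraries. These sums, T cells aside, were higher in KO, as were Esrra, Nrf1, Gabpa and Tfb2m, and their part in those values was not tested. The macrophage and adipocyte sums were close between the libraries. Of the adipocyte and of the endothelial markers, 3 were at a higher value in KO and 1 in WT.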

How the data were processed

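Poly(A) RNA of sorted ATM was sequenced in 1 WT and 1 KO library. The authors deposited FPKM values per Ensembl gene, and their processing notes name CASAVA 1.8.2, TopHat2 2.0.9, Cufflinks 2.2.1 and the mm9 build. The annotation, filters and strand setting are not given in the sources used here. FPKM is already scaled by length and depth, so no count model was used. KO values came from the column headed as mutant, since the labels hold no other ATM sample that is not WT. This reading was not tested, and Hif1a over the whole gene does not settle it. An exchange of the columns would turn the direction of every difference given here.

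Of 20749 rows, 401 full repeats were dropped and other rows of an identifier were summed. Symbols came from GENCODE M21 (98.5% of genes). The comparison was log2(FPKM + 1), KO minus WT, for genes with at least 1 FPKM in a library, and 3-fold on this scale was called. With 1 library per genotype no test was possible. The members, gene lists, motifs and naming rule were chosen with earlier results of these data known. From each list, genes past 3-fold with at least 1 FPKM in both libraries and the 2 most abundant were named, at most 6 a list. The promoters shown and any gene named outside this rule, Gabpb1, Gabpb2, Ssbp1 and genes named to complete a count among them, were chosen after their values were seen. Coordinates describe GRCm38 and not mm9. Alternatives were pseudocounts of 0.1 and 0.01, other filters, scalings, thresholds and handling of repeated identifiers.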

Additional observations from a re-analysis of the deposited data

How the results depend on the processing

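With no filter the median change of the members was 0.23, since genes at 0 enter, and with a mean of at least 5 FPKM it was 0.46, with 5 members left. The number of members higher in KO by 3-fold was 1 with a mean of at least 5 FPKM, and with at least 1 FPKM in both libraries 1 member was higher and 0 were lower, because both filters leave out Gabpa and Tfb2m and that on both libraries also Polrmt. An allowance of 1.5-fold was used, as no replicate spread exists. Of 28 recomputed counts and medians of the members, 23 were within it, 5 moved by more and 0 reversed. Of 51 recomputed changes of single members, 45 were within it and 6 were larger, all of Gabpa, Tfb2m and Polrmt under smaller pseudocounts. These reached 2.91 for Gabpa, 5.70 for Tfb2m and -6.36 for Polrmt at 0.01. Of 144 recomputed list values 123 were within it and 21 moved, and the median of the mtDNA replication genes went from -0.55 to 0.55 with at least 1 FPKM in both libraries, with fewer genes. This filter left out Twnk, Dna2, Atad3a, Lig3, Suclg2 and Primpol, all at a lower value in KO, and Top1mt, at a higher value. Why their values differed between the libraries was not tested. Of 4 ratios computed within libraries, those of Gabpa to Gabpb1 and Tfb1m to Tfb2m moved with a pseudocount of 0.1. Scaling to the upper quartile or the same FPKM sum gave a median of the members of 1.44 and 1.47, and a median of all genes of 0.04 and 0.07. A 3-fold threshold on the FPKM ratio, an alternative chosen after seeing the data, added Nrf1, with 37.1% of all genes past it. Depth limits Tfb2m in WT and Polrmt in KO, with 1 and 5 estimated fragments. No paired analysis was possible because WT and KO have 1 library each.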

Other observations

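Genes that shape the mitochondrial network were described next to the regulators. Of 12 fusion and fission genes compared, 10 were within 3-fold, 0 were higher and 2 were lower in KO, Mtfp1 and Mief2, both factors that promote or regulate fission. Of all genes at these levels 31.6% were past 3-fold, and with at least 1 FPKM in both libraries 0 genes of the list were. Mief2 was at 7.88 and 0.108 FPKM, and Mtfp1 at 16.1 FPKM in WT and listed at 0 in KO. Fis1, which encodes an outer-membrane fission protein, was at 163 FPKM in WT against 78.6 in KO, and Mff, the receptor for the fission GTPase, was at 20.6 and 39.7. Mfn2, a fusion GTPase of the outer membrane, was at 7.74 and 8.32 FPKM. Mtfp1, Mief2 and Mfn2 fell outside the naming rule.

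The list on HIF-1 and mitochondria, which holds Hif1a itself and Epas1, the gene for HIF-2α, beside genes tied to mitochondria under hypoxia, had a median change of -0.87 over 9 compared genes, with 7 at a lower value in KO, Hif1a and Epas1 among them, and 1 gene past 3-fold in each direction, Bnip3 higher and Pdk1 lower. Of all genes at these levels 27.7% were past 3-fold. Pdk1, which encodes a pyruvate dehydrogenase kinase, was at 4.46 FPKM in WT and listed at 0 in KO. Bnip3, a mitophagy receptor that HIF-1 induces, was at 1.51 FPKM in WT against 8.93 in KO. Cox4i1, the constitutive isoform of a cytochrome c oxidase subunit, was at 334 and 181 FPKM, and Higd1a, a hypoxia-induced protein of the inner membrane, was at 43.9 and 17.8. Mxi1, which encodes an antagonist of MYC, was at 6.23 and 2.96 FPKM, the reverse of the order of Myc. Mxi1 and Pdk1 were named after their values were seen.

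Some genes of mitochondrial DNA and RNA machinery had values well above 0 in 1 library only. Of all genes, 15.3% at 2 to 5 FPKM and 6.05% at 5 to 10 FPKM were listed at 0 in WT, and 12.9% and 5.31% in KO. Lrpprc, which stabilises mitochondrial mRNA together with Slirp, was at 9.97 FPKM in WT against 0.0283 in KO, the same order as Polrmt. Twnk, the mtDNA helicase gene, was at 9.17 FPKM in WT and was listed at 0 in KO. The reverse held for Tefm, which encodes the elongation factor of mitochondrial transcription, with 0 in WT but 10.4 FPKM in KO. Supv3l1, a mitochondrial RNA helicase gene, likewise had 0 in WT but 7.60 FPKM in KO. These 4 genes were named after their values were seen.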
